A study of Rattus norvegicus with 46 samples.

Results

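The 10 genes described here belong to the core circadian clock: the activators Arntl, Clock and Npas2, the repressors Per1, Per2, Per3 and Cry1, the nuclear receptors Nr1d1 and Nr1d2, and the output factor Dbp. They were chosen by symbol, and each of the 10 had a single row among the 32552 genes of the count table. Their expression was read in 46 bulk RNA sequencing libraries, 23 from liver and 23 from quadriceps muscle, of wild-type DIO rats, in which obesity had been induced by diet. The vehicle group was the control, rats of the weight-matched group were given less food so that they reached a matched weight, and the third group received CagriSema, a combination of the amylin analog cagrilintide and the GLP-1 receptor agonist semaglutide. In liver the groups held 8 vehicle, 8 weight-matched and 7 CagriSema libraries, and in quadriceps 7, 8 and 8. The study's design text gives 20 days of treatment or restriction for the liver. It does not speak of muscle. The strain, sex and age of the rats, the time of day at which tissue was taken and the hours at which food was given are not stated in the sources used here. Whether each library is a rat of its own is not in the labels, and p-values therefore measure the spread between libraries only.

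The clock runs in nearly every cell as a transcriptional loop that takes about a day. A dimer of BMAL1, the product of Arntl, with CLOCK or its relative NPAS2 binds E-box sequences and switches on the Per and Cry genes, Nr1d1, Nr1d2 and Dbp, and the PER and CRY proteins then shut the dimer off. The receptors encoded by Nr1d1 and Nr1d2, REV-ERB alpha and beta, repress Arntl, Clock, Npas2 and Cry1 through ROR elements, while DBP activates genes with D-boxes, Per genes among them. In liver the phase of the loop follows the hours of feeding, and Arntl and Npas2 peak when Dbp and Nr1d1 are low. A level measured at an unstated hour therefore does not tell a shift in phase from a change in amplitude or in mean level. Whether all libraries were taken at the same hour is not stated either.

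Library totals were 9888858 to 15948219 counts in liver and 11462369 to 16525274 counts in quadriceps. A count of 0 would allow up to 0.188 to 0.303 CPM (counts scaled to a common library size) in liver and 0.182 to 0.262 CPM in quadriceps, where 3 counts are taken as the floor. The 10 hepatocyte markers summed to 107151 to 196137 CPM in liver and to at most 115 CPM in quadriceps. The 8 muscle fibre markers with a row summed to 119145 to 210565 CPM in quadriceps and to at most 1.997 CPM in liver, except for vehicle liver library 1 at 89.8 CPM. Vehicle liver libraries 4 and 6 and vehicle quadriceps libraries 2, 5 and 8 had stood apart from their groups in earlier results. Liver library 4 had 1.87% of its counts on ribosomal protein genes, where the other liver libraries had at most 0.950%, and scored 117 on a first principal component on which library 6 scored 35.2 and the other 21 liver libraries 0.488 or less. On the second component of the muscle data, libraries 2 and 5 had scores of -43.0 and -32.8, and all other muscles scored -8.59 or more. Mitochondrial genes took 9.30% of the counts of liver library 6 and 22.9% of those of quadriceps library 8. Calls of the members and list genes named here that changed without liver libraries 4 and 6, or without quadriceps libraries 2 and 5, are given both ways. In bulk tissue, fewer cells of a type and less RNA per cell cannot be told apart.

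RefSeq promoters of build GRCr8, running from 250 bases before to 50 bases after the annotated start, were matched for 9 of the 10 genes. Cry1 was not matched. They were searched on both strands for CACGTG, the E-box, which reads the same on both strands, for the E-box variant CACGTT, for the D-box TTATGNAA and for the ROR element core TAGGTCA. Of 33469 rat promoters of this length, 6.42% held CACGTG, 4.83% CACGTT, 3.66% TTATGNAA and 2.63% TAGGTCA. Among the members, 3 held at least 1 of these, and they are printed for that reason. Capitals mark the matches, and positions count from the start. The promoter of Arntl, named Bmal1 in RefSeq, lies on the plus strand at chr1:176766078-176766377 and holds TAGGTCA at -16. The promoter of Per2, on the minus strand at chr9:99496944-99497243, holds TTATGNAA at -192 and CACGTT at -62. Nr1d1 has a pair of annotated starts on the minus strand. The first, at chr10:84231763-84232062, holds CACGTT at -174, read on the opposite strand and so printed as AACGTG. The second, at chr10:84229405-84229704, holds CACGTG at -191. Ciart, a clock repressor outside the 10 members that is described with the quadriceps, is added because CACGTG occurs in it at -93, -35 and -21; it lies on the minus strand at chr2:186112197-186112496. A match is a description of the letters and not evidence of binding, and a window without a match says nothing about the factor.
Arntl: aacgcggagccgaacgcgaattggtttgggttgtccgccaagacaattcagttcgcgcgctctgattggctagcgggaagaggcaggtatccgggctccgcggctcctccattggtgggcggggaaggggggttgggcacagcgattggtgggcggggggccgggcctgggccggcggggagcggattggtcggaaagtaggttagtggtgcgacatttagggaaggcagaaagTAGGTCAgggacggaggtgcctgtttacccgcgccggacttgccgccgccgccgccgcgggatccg
Per2: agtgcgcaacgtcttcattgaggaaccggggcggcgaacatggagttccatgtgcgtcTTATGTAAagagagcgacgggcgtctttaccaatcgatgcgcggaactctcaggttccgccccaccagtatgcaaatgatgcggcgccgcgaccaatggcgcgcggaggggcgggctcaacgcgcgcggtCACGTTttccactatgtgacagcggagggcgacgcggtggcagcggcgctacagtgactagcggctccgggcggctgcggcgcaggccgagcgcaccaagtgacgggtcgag
Nr1d1, first start: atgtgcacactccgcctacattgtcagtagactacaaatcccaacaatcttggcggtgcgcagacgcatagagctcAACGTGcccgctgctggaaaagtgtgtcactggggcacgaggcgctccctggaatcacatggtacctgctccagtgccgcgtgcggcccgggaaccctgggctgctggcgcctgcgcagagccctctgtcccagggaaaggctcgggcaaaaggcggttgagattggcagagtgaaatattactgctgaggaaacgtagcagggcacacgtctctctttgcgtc
Nr1d1, second start: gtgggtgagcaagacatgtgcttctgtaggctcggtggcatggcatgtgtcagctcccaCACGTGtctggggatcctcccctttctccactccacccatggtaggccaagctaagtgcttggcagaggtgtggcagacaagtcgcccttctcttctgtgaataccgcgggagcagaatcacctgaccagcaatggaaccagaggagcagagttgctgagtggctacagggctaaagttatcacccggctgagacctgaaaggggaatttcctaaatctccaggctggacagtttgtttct
Ciart: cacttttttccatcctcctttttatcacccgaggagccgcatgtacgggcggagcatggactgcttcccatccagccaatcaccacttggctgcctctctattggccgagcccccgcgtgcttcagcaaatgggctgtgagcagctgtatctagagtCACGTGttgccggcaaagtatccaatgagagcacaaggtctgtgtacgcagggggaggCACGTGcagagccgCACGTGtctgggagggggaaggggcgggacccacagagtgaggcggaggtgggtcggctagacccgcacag

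In the livers of weight-matched rats, the 4 repressors Per1, Per2, Per3 and Cry1 rose against vehicle and Nr1d1 fell. These were 5 of the 9 members tested at an adjusted p below 0.05 (edgeR quasi-likelihood F test, Benjamini-Hochberg over 12702 genes), 4 higher and 1 lower. Over all genes tested, 7.02% were called in this comparison, 2.49% higher and 4.53% lower. The activators Arntl and Clock, the receptor Nr1d2 and Dbp did not pass the test, and Npas2 was left out of it by the filter on low counts.

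Cry1, a core repressor of the BMAL1 dimer, moved most among the called members. It ran from 6.54 to 18.6 CPM in vehicle livers (median 10.7), from 16.3 to 24.95 CPM in weight-matched livers (median 21.5) and from 13.5 to 20.3 CPM with CagriSema (median 14.2). In 7 of 8 weight-matched livers it was above every vehicle liver. The change against vehicle was 0.86 ± 0.18 on the log2 scale (SE), or 1.82-fold, with an adjusted p of 0.00498, and it passed in each of the 16 fits that left out 1 library.

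The 3 Per genes, whose proteins form the repressor complex with CRY, were higher by similar amounts. Per2 ran from 58.7 to 141 CPM in vehicle livers (median 102) and from 114 to 178 CPM in weight-matched livers (median 151), with 6 of 8 weight-matched livers above every vehicle liver. Its change was 0.54 ± 0.14 (SE, adjusted p = 0.0223). Per1, which also answers acutely to glucocorticoids and other signals, had a median of 71.7 CPM in vehicle livers (33.6 to 143) and of 130 CPM in weight-matched livers (108 to 148). The low end of the vehicle range was set by library 6, and only 1 weight-matched liver was above every vehicle liver, although all 8 were above the vehicle median. The change of Per1 was 0.68 ± 0.19 (SE, adjusted p = 0.0319). Per3, a Per gene that is less needed for rhythmicity, ran from 49.4 to 161 CPM in vehicle livers (median 106) and from 141 to 183 CPM in weight-matched livers (median 154). Its change was 0.52 ± 0.15 (SE, adjusted p = 0.0343), with 2 of 8 weight-matched livers above every vehicle liver.

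Nr1d1 encodes REV-ERB alpha, which represses Arntl, Npas2 and Cry1. It ran from 71.3 to 163 CPM in vehicle livers (median 125), from 58.9 to 96.5 CPM in weight-matched livers (median 75.0) and from 56.7 to 138 CPM with CagriSema (median 110). All 8 weight-matched livers were below the vehicle median, yet only 1 was below every vehicle liver. Against vehicle, with weight matching its log2 level fell by 0.64 ± 0.17 (SE, adjusted p = 0.0219). Its paralog Nr1d2 gave medians of 126, 136 and 121 CPM in the vehicle, weight-matched and CagriSema livers, and its difference of 0.12 ± 0.07 (SE, adjusted p = 0.297) did not pass.

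Not all of these calls were equally firm. Without vehicle library 6 the calls of Per2 (adjusted p = 0.0517), Per3 and Nr1d1 (adjusted p = 0.0549) were lost, and Per1 and Cry1 passed. Per1 passed in 8 of 16 fits that left out 1 library, with adjusted p-values of 0.00282 to 0.0606. It was lost without vehicle library 1, 4 or 5 or without weight-matched library 26, 27, 29, 30 or 31. Per3 passed in 9 of 16, with adjusted p-values of 0.00669 to 0.0742, and was lost without vehicle library 2, 5 or 6 or weight-matched library 26, 27, 29 or 31. Without both vehicle libraries 4 and 6 all 5 calls held, and Clock was added at -0.36 (adjusted p = 0.0163). A fit of the vehicle and weight-matched livers alone called only Cry1 and Nr1d1, with adjusted p-values of 0.0862 for Per1, 0.0715 for Per2 and 0.101 for Per3.

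**Figure D1:**
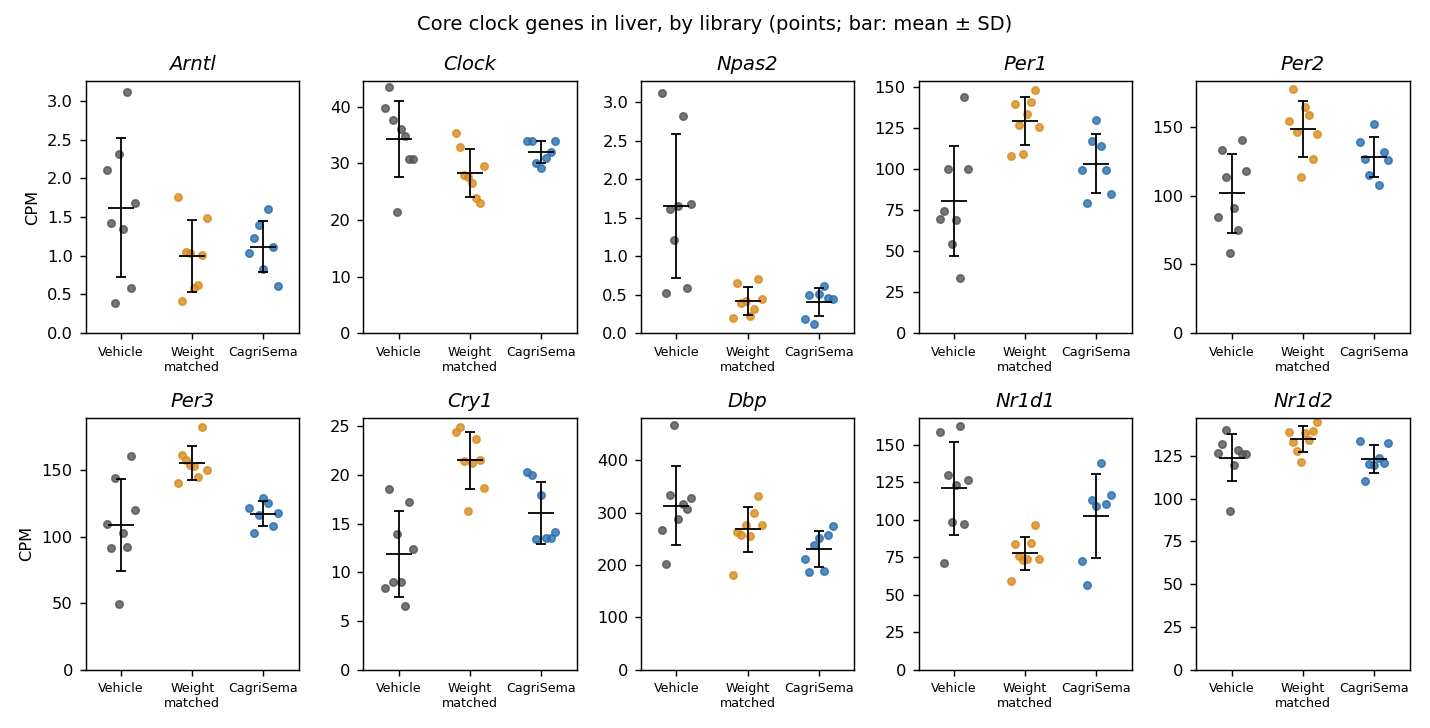
Levels of the 10 clock genes in liver, in CPM on a linear axis from 0, by treatment. Each point is a library (8 vehicle, 8 weight matched, 7 CagriSema) and bars give the mean ± SD; Per1, Per2, Per3 and Cry1 sit higher and Nr1d1 lower in weight-matched than in vehicle livers, and the CagriSema livers of Per3 all lie below the weight-matched ones.

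No activator passed the test in liver. Clock, which binds DNA together with BMAL1, ran from 21.4 to 43.5 CPM in vehicle livers (median 35.5), from 22.96 to 35.4 CPM in weight-matched livers (median 27.7) and from 29.3 to 34.05 CPM with CagriSema (median 31.98). Its difference with weight matching was -0.28 ± 0.11 (SE, adjusted p = 0.124), and all 8 weight-matched livers were below the vehicle median. Arntl ran from 0.384 to 3.12 CPM in vehicle livers (median 1.55), from 0.410 to 1.76 CPM in weight-matched livers (median 1.02) and from 0.612 to 1.60 CPM with CagriSema (median 1.11). These are 5 to 41 counts per library, so Arntl was close to the limit of what this depth can resolve. Its differences against vehicle were -0.68 ± 0.34 (SE, adjusted p = 0.214) with weight matching and -0.52 ± 0.34 (SE, adjusted p = 0.404) with CagriSema.

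Npas2, the relative of Clock that can take its place as partner of BMAL1, stood at 6 to 43 counts per vehicle liver, 3 to 8 per weight-matched liver and 2 to 8 per CagriSema liver. In CPM that is 0.519 to 3.13 in vehicle (median 1.63), 0.189 to 0.705 with weight matching (median 0.402) and 0.122 to 0.608 with CagriSema (median 0.456). In both treated groups 6 libraries were below every vehicle liver, and vehicle libraries 2 and 7 lay within the treated range. The filter on low counts removed the gene from the main fit. With no filter its differences against vehicle were -2.001 ± 0.38 (SE, adjusted p = 0.00222) with weight matching and -2.03 ± 0.39 (SE, adjusted p = 0.0396) with CagriSema. DESeq2 gave -2.03 (adjusted p = 4.24e-05) and -2.06 (adjusted p = 0.000830), and CagriSema against weight matching gave -0.02 ± 0.43 (SE) with no filter. The treated livers lie around the floor of 3 counts, so these values are a description and the calls against vehicle support nothing.

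Dbp, a direct target of the BMAL1 dimer and the best known output factor of the clock, ran from 202 to 467 CPM in vehicle livers (median 311), from 181 to 332 CPM in weight-matched livers (median 270) and from 187 to 274 CPM with CagriSema (median 239). All 7 CagriSema livers and 7 of 8 weight-matched livers were below the vehicle median. The highest vehicle value was that of library 4. Neither difference passed, at -0.23 ± 0.13 (SE, adjusted p = 0.2999) with weight matching and -0.44 ± 0.14 (SE, adjusted p = 0.140) with CagriSema.

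With CagriSema none of the 9 members tested in liver passed against vehicle by the edgeR test, where 0.354% of all genes did. DESeq2 called 1 member, Npas2, and 283 of all genes. Per2, Cry1 and Dbp had an unadjusted p below 0.05. The share of all genes below that unadjusted p was not computed, here or in the comparisons below. Counts of members at an unadjusted p are therefore not read as an excess over other genes. The differences of the repressors were 0.36 ± 0.20 for Per1, 0.34 ± 0.15 for Per2, 0.11 ± 0.15 for Per3 and 0.45 ± 0.18 for Cry1 (SE), with adjusted p-values of 0.325, 0.242, 0.716 and 0.218. That of Nr1d1 was -0.24 ± 0.17 (SE, adjusted p = 0.441). Weight matching and CagriSema were measured against the same vehicle libraries, so the similar signs of these values share that source. Without vehicle libraries 4 and 6, the difference of Per3 turned to -0.05 and that of Per1 came to 0.16.

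The direct comparison of CagriSema with weight matching in liver gave no call among the 9 members tested by the edgeR test and none of the 10 by DESeq2, where edgeR called 0.535% of all genes, and 3 members had an unadjusted p below 0.05. Per3 was the only member whose groups did not overlap in any comparison: all 7 CagriSema livers, at 103 to 129 CPM (median 118), were below all 8 weight-matched livers. Of all genes tested in liver, 1.27% did not overlap between these groups, 0.811% between weight matching and vehicle and 0.252% between CagriSema and vehicle, and in quadriceps the shares in the same order were 0.112%, 0.385% and 0.0962%. The difference of Per3 was -0.41 ± 0.15 (SE, adjusted p = 0.268). It passed without vehicle libraries 4 and 6 at the same -0.41 (adjusted p = 0.0143), and in a fit of the CagriSema and weight-matched livers alone (adjusted p = 0.00199). Over all genes, this fit of the pair called 603 genes against 68 in the fit of the 3 groups. Cry1, at -0.41 ± 0.18 (SE, adjusted p = 0.381), passed in the fit of the pair (adjusted p = 0.0480) and not without libraries 4 and 6 (adjusted p = 0.147). Nr1d1 was 0.40 ± 0.17 higher (SE, adjusted p = 0.369), with 5 of 7 CagriSema livers above every weight-matched liver and 1, library 34, below all of them.

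Markers of other cell types moved with weight matching in liver as well. Of the 10 hepatocyte markers 3 fell, and the list summed to 121004 to 196137 CPM in vehicle and 112525 to 138453 CPM in weight-matched livers. Of 5 blood cell markers with a row, 4 were tested and 2 fell, and the list summed to 60.1 to 354 CPM and 35.9 to 70.7 CPM. Of 9 fibroblast and stellate cell markers, 7 were tested and 1 rose. No Kupffer cell, endothelial, bile duct or adipocyte marker passed. Over all genes tested, 2.49% rose and 4.53% fell. Without vehicle libraries 4 and 6, 1 hepatocyte and 2 blood cell markers fell, and 1 fibroblast and 1 endothelial marker rose. The part of these cells in the changes of the clock genes was not tested.

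The spread itself differed between groups. In liver the SD of log2 CPM was largest in the vehicle group for 8 of the 9 members tested, all but Nr1d1, and for 77.8% of all genes tested. Without vehicle libraries 4 and 6 it was so for 6 of 9 members and for 39.8% of all genes.

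In quadriceps, Nr1d1 was the only member that passed the test with weight matching, and it fell as in liver. It ran from 68.3 to 111 CPM in vehicle muscles (median 98.4), from 36.5 to 71.6 CPM in weight-matched muscles (median 55.8) and from 55.1 to 124 CPM with CagriSema (median 74.2). In 6 of 8 weight-matched muscles it was below every vehicle muscle. Its log2 level fell by 0.78 ± 0.17 against vehicle (SE, adjusted p = 0.0191 over 12471 genes), to 0.583 of the vehicle level. Of the 10 members 1 passed, where 2.29% of all genes tested were called in this comparison and 1.17% were called lower. The call was lost without vehicle library 5 (adjusted p = 0.0612), without vehicle libraries 2 and 5 (-0.78, adjusted p = 0.0887) and in a fit of the pair of groups alone (adjusted p = 0.0568).

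Of the 8 muscle fibre markers 1 rose with weight matching in quadriceps, and the list summed to 119145 to 167082 CPM in vehicle and 150329 to 210565 CPM in weight-matched muscles. Of 9 fibroblast markers, 8 were tested and 2 fell. Over all genes tested, 1.11% rose and 1.17% fell. None of these 3 markers passed without vehicle libraries 2 and 5, with adjusted p-values of 0.185 to 0.191. The part of these cells in the change of Nr1d1 was not tested.

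Dbp was the next member in order of p. It ran from 166 to 281 CPM in vehicle muscles (median 230), from 133 to 221 CPM in weight-matched muscles (median 163) and from 151 to 262 CPM with CagriSema (median 214). All 8 weight-matched muscles were below the vehicle median and 4 were below every vehicle muscle. Its difference of -0.46 ± 0.13 (SE, adjusted p = 0.0533) missed the threshold in edgeR and passed in DESeq2 (adjusted p = 0.0188). It also passed in edgeR without vehicle library 2 or without weight-matched library 31 or 32.

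Among the repressors in muscle, Cry1 and Per3 were slightly higher with weight matching and did not pass. Cry1 ran from 9.03 to 13.9 CPM in vehicle muscles (median 12.2) and from 12.4 to 19.5 CPM in weight-matched muscles (median 13.8), a difference of 0.28 ± 0.10 (SE, adjusted p = 0.128). Per3 ran from 50.6 to 73.4 CPM in vehicle muscles (median 68.2) and from 68.3 to 75.6 CPM in weight-matched muscles (median 73.5), a difference of 0.15 ± 0.06 (SE, adjusted p = 0.183). For each, 4 of 8 weight-matched muscles were above every vehicle muscle. Per1 and Per2 differed by -0.10 ± 0.11 and 0.12 ± 0.10 (SE), with adjusted p-values of 0.683 and 0.541. Per1 ran from 80.8 to 143 CPM in vehicle muscles and from 65.8 to 110 CPM in weight-matched muscles, and Per2 from 39.01 to 72.8 CPM and from 51.9 to 76.1 CPM, with full overlap of the middle of each range.

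The activators and Nr1d2 in muscle did not pass in any treatment comparison. Arntl ran from 1.59 to 14.7 CPM in vehicle muscles (median 3.94), from 2.53 to 6.18 CPM with weight matching (median 3.65) and from 2.44 to 3.78 CPM with CagriSema (median 3.11). The highest vehicle value came from library 2, and the next was 5.52 CPM. The differences of Arntl against vehicle were -0.41 ± 0.33 with weight matching and -0.69 ± 0.33 with CagriSema (SE, adjusted p = 0.535 and 0.481), and without vehicle libraries 2 and 5 they were 0.07 and -0.21. Clock was at most 42.3 CPM in all 23 muscles and its group medians were 34.2 CPM with vehicle, 31.04 CPM with weight matching and 34.4 CPM with CagriSema. Over the 23 muscles, Npas2 ran from 0.202 to 3.15 CPM and Nr1d2 from 127 to 160.4 CPM.

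CagriSema gave no call among the 10 members in muscle, either against vehicle, where edgeR called 0.0321% of all genes, or against weight matching, where it called 0.128%. DESeq2 called none in either comparison. At an unadjusted p below 0.05 there were 2 members against vehicle, Arntl and Per3, and 3 against weight matching, Clock, Dbp and Nr1d1. The shares of all genes above are for the adjusted p, and those for the unadjusted p were not computed. Against weight matching, Nr1d1 was 0.56 ± 0.16 higher (SE, adjusted p = 0.296) and Dbp 0.33 ± 0.12 higher (SE, adjusted p = 0.540), and 7 of 8 CagriSema muscles were above the weight-matched median for each gene. Nr1d1 in CagriSema muscles lay above every weight-matched muscle in 5 of 8, and Dbp in 3 of 8.

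**Figure D2:**
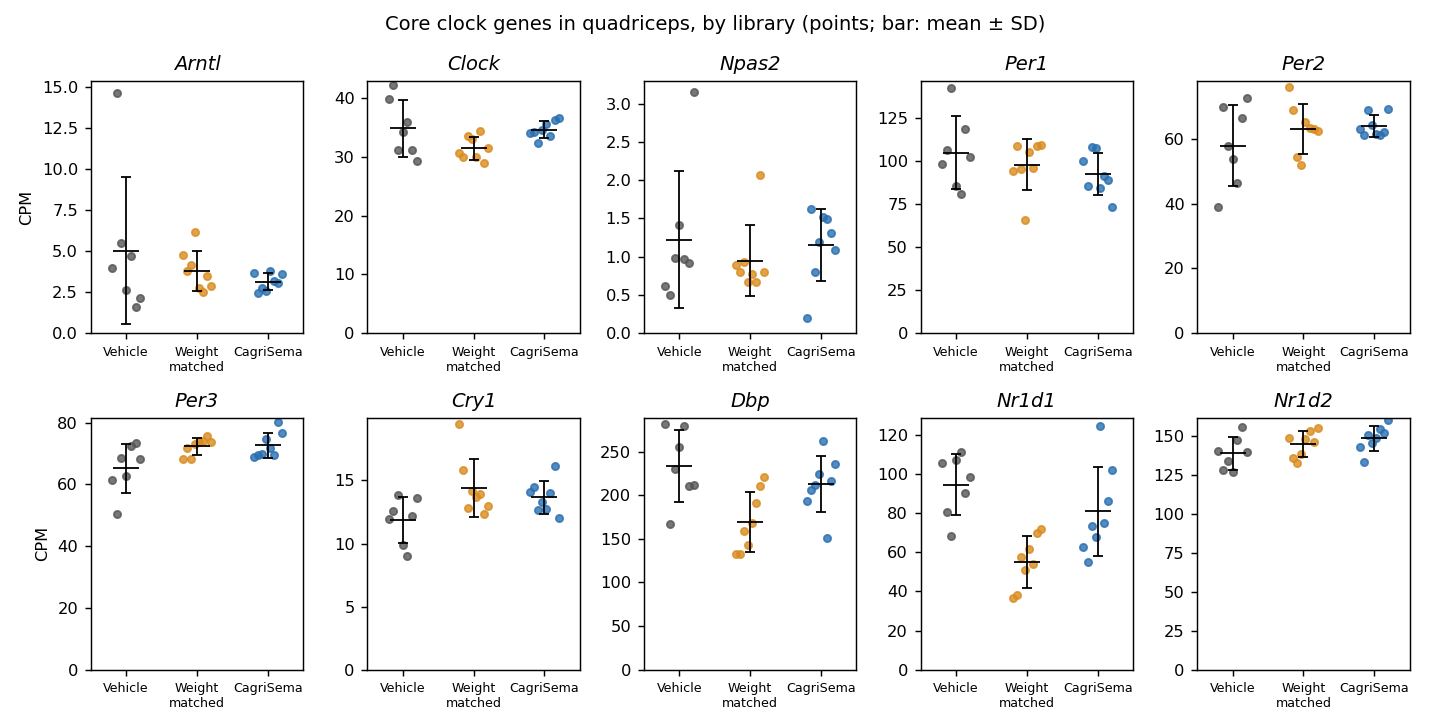
Levels of the 10 clock genes in quadriceps, in CPM on a linear axis from 0, by treatment. Each point is a library (7 vehicle, 8 weight matched, 8 CagriSema) and bars give the mean ± SD; Nr1d1 is lowest in weight-matched muscles, and the wide bar of Arntl in vehicle comes from 1 library at 14.7 CPM.

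The difference between a gene's change in liver and its change in muscle was itself tested in a joint fit of the 46 libraries, over 14110 genes. That fit did not account for library numbers shared by the tissues. No member passed by the edgeR test for weight matching, where 2.76% of all genes did. DESeq2 called 2 members, Npas2 and Per1, and 797 of all genes, against 389 by edgeR. By edgeR 5 members had an unadjusted p below 0.05, and the share of all genes below it was not computed. The repressor Per1 came closest. Its change in liver exceeded that in muscle by a log2 value of 0.78 ± 0.23 (SE, adjusted p = 0.0506, and 0.0309 in DESeq2), and it passed in 8 of 31 fits that left out 1 library. With the library number shared by liver and muscle as a block, the difference was 0.93 (adjusted p = 0.0137). For Npas2 the difference was -1.68 ± 0.55 (SE, adjusted p = 0.0729, and 0.0453 in DESeq2), for Cry1 0.58 ± 0.21 (SE, adjusted p = 0.111), for Per2 0.42 ± 0.18 and for Per3 0.37 ± 0.17 (SE). Nr1d1, which fell in both tissues, gave 0.14 ± 0.24 (SE, adjusted p = 0.812), with a 95% interval of the difference from -0.33 to 0.61.

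For CagriSema against vehicle, no member passed the interaction by edgeR, where 0.149% of all genes did, and 2 had an unadjusted p below 0.05. Npas2 gave -1.99 ± 0.55 (SE, adjusted p = 0.0959), and DESeq2 called it (adjusted p = 0.0382) among 188 of all genes, against 21 by edgeR. Leaving out vehicle quadriceps library 8, which held the highest muscle value of Npas2 at 3.15 CPM, also brought it past the test (adjusted p = 0.0265). The treated livers were near the floor for Npas2, which limits its interactions against vehicle with both treatments. Per1 gave 0.54 ± 0.23 (SE, adjusted p = 0.264). For CagriSema against weight matching, no member passed by either tool, where edgeR called 0.0213% of all genes, and Per3 and Dbp had an unadjusted p below 0.05. Without the 4 vehicle libraries set apart (liver 4 and 6, quadriceps 2 and 5), Per3 passed at -0.42 (adjusted p = 0.0392).

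**Figure D3:**
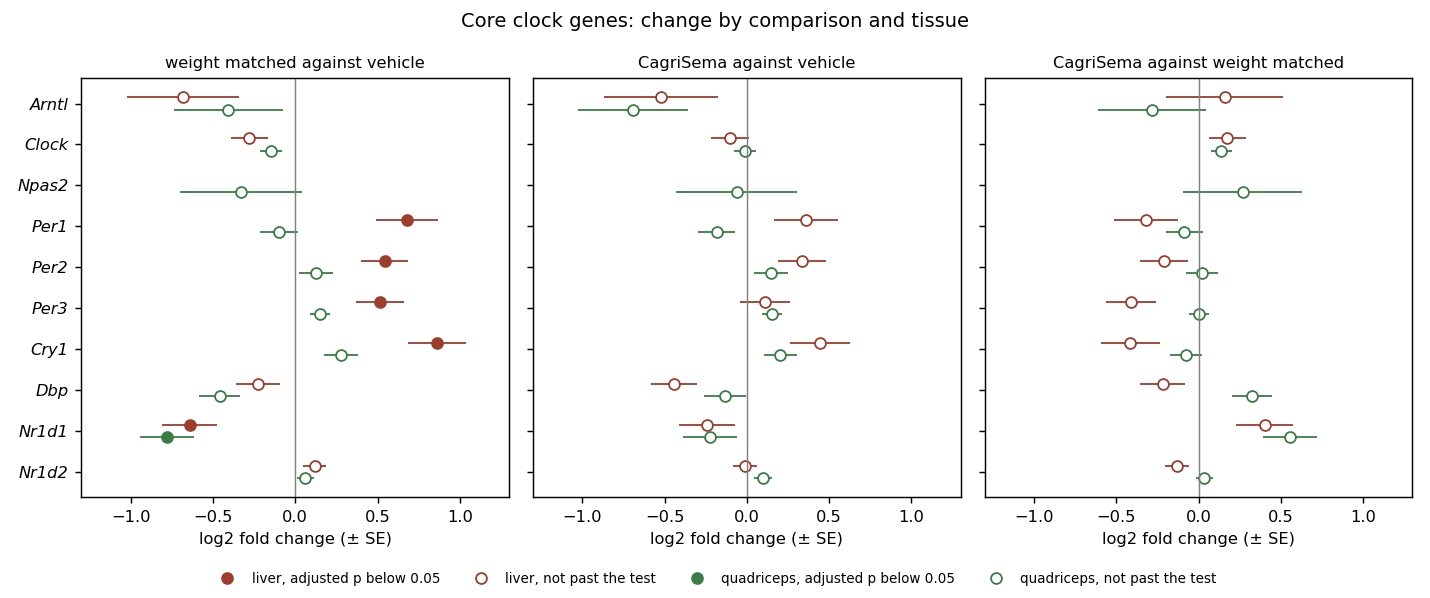
Log2 fold change ± SE of the 10 clock genes in liver (red) and quadriceps (green) in the 3 treatment comparisons. Filled points passed an adjusted p of 0.05: Per1, Per2, Per3, Cry1 and Nr1d1 in liver and Nr1d1 in quadriceps, all with weight matching against vehicle; Npas2 was not tested in liver.

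In vehicle rats, 6 of the 10 members differed between liver and muscle on a common scale, where 83.4% of all genes did. Of the members, 3 were higher in liver (43.4% of all genes) and 3 lower (40% of all genes). Arntl was lower in liver by a log2 value of 1.70 ± 0.34 (SE, adjusted p = 1.34e-05), with 1.58 ± 0.88 CPM in liver (SD, n = 8) and 5.11 ± 4.54 CPM in muscle (SD, n = 7). Without quadriceps library 2 its log2 difference was -1.15, and the call held in each of 15 fits that left out 1 library. Per2 was higher in liver by 0.76 ± 0.13 (SE, adjusted p = 1.07e-06) and Per3 by 0.68 ± 0.12 (SE, adjusted p = 1.62e-06), at 99.9 ± 28.6 against 59.0 ± 12.5 CPM and 107 ± 33.8 against 66.5 ± 8.24 CPM (SD). Dbp was higher in liver by 0.37 ± 0.14, and Nr1d2 and Per1 were lower by 0.22 ± 0.07 and 0.44 ± 0.17 (SE), with adjusted p-values of 0.0145, 0.00179 and 0.0129. Without the 4 vehicle libraries set apart the calls of Per1 and Dbp were lost. Per1 was also lost without quadriceps library 4 and Dbp without liver library 4. Clock, Cry1, Npas2 and Nr1d1 did not pass, and the 95% intervals of their differences were -0.26 to 0.11 for Clock, -0.36 to 0.24 for Cry1, -0.29 to 1.11 for Npas2 and -0.04 to 0.64 for Nr1d1.

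Libraries were also compared with each other within a treatment group. Over the 23 libraries of a tissue, deviations from the group mean of log2 CPM were correlated for each of 45 pairs of members, 90 tests in all, with permutation p-values (two-sided, 100000 resamples, shuffled within treatment) adjusted over the 90. In each tissue 2 pairs passed by both Pearson and Spearman correlation. Cry1 and Nr1d1 were among them in both. The share of other gene pairs that would pass was not computed, so these counts are not read as a trait of the clock genes. In liver, Cry1 and Nr1d1 gave r = -0.739 (adjusted permutation p = 0.00765) and rho = -0.663 (adjusted permutation p = 0.0257). Leaving out the 2 libraries farthest from the median of Cry1 left r at -0.627. The relation held within the vehicle (r = -0.920) and CagriSema livers (r = -0.851) but not within the weight-matched livers (r = 0.0596). In quadriceps the same pair gave r = -0.664 (adjusted permutation p = 0.00840) and rho = -0.699 (adjusted permutation p = 0.00945), with -0.600 after the same step and -0.717, -0.900 and -0.410 within vehicle, weight-matched and CagriSema muscles. The other members named as REV-ERB targets did not pass with Nr1d1 by both measures. In liver Npas2 gave r = 0.623 and rho = 0.647 (adjusted permutation p = 0.0667 and 0.0293), Arntl r = 0.0291 and Clock r = -0.176. In quadriceps Npas2, Arntl and Clock gave r = 0.286, -0.176 and 0.169. The part of REV-ERB alpha in these correlations was not tested.

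The other pairs that passed both involved Dbp. Dbp and Nr1d1, both E-box targets, varied together in quadriceps at r = 0.690 and rho = 0.751 (adjusted permutation p = 0.0103 and 0.00945), with r = 0.766 after leaving out 2 libraries and 0.602, 0.893 and 0.550 within vehicle, weight-matched and CagriSema muscles. Clock and Dbp opposed each other in liver at r = -0.786 and rho = -0.645 (adjusted permutation p = 0.00765 and 0.0234), with r = -0.610 after leaving out 2 libraries and -0.894, -0.834 and -0.201 within the vehicle, weight-matched and CagriSema livers. Without the vehicle libraries set apart, the 4 correlations were -0.703 and -0.655 for Cry1 with Nr1d1 in liver and quadriceps, 0.695 for Dbp with Nr1d1 in quadriceps and -0.703 for Clock with Dbp in liver. These 4 values, and those after leaving out 2 libraries, used deviations from the group means of all libraries. The libraries left out therefore still entered through those means, and their influence was not fully removed. Members of a pair were read from the same libraries and share their depth and scaling.

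**Figure D4:**
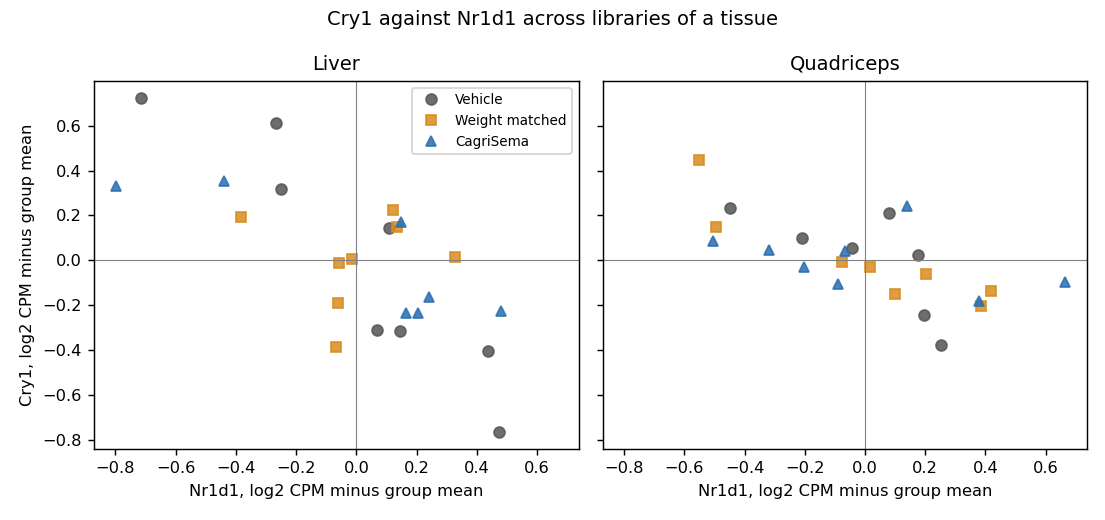
Cry1 against Nr1d1 across the 23 libraries of liver (left) and quadriceps (right). Each point is a library, both axes give log2 CPM minus the mean of its group, and symbols mark the treatment; points fall from upper left to lower right in both tissues, at r = -0.739 and -0.664, except among weight-matched livers.

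Other genes of the pathway were taken from 3 lists chosen with earlier results of these data known. Of 25 partners and regulators of the clock, 23 were tested in liver, and with weight matching 2 rose and none fell, with a median log2 change of 0.18 against -0.01 over all genes tested. Beside this, 2.49% of all genes tested rose and 4.53% fell. Both calls held without vehicle libraries 4 and 6. Among these was Ddb1, part of a ubiquitin ligase, which rose by 0.25 ± 0.07 (SE, adjusted p = 0.0399) and is named after its value was seen. In quadriceps 22 were tested and 1 fell, where 1.17% of all genes tested did. That gene was Ciart, an E-box-driven repressor of the BMAL1 dimer, whose promoter is printed above. It had medians of 12.3 CPM in vehicle muscles (7.48 to 12.6) and 7.76 CPM in weight-matched muscles (3.83 to 10.8), and its log2 level fell by 0.66 ± 0.17 (SE, adjusted p = 0.0360). The call was lost without vehicle libraries 2 and 5 (-0.74, adjusted p = 0.0670) and without library 8 (-0.64, adjusted p = 0.0563). In liver its difference was -0.22 ± 0.29 (SE, adjusted p = 0.664).

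Of 20 clock output genes, 18 were tested in liver and 16 in quadriceps. With weight matching in liver 2 rose and 2 fell, with a median log2 change of 0.25 against -0.01 over all genes, of which 2.49% rose and 4.53% fell. None of the 4 passed without vehicle libraries 4 and 6, where their adjusted p-values were 0.0620 to 0.0989. Avpr1a, the vasopressin receptor of hepatocytes, fell by a log2 value of 0.90 ± 0.22 (SE, adjusted p = 0.0141), from a median of 98.5 CPM (54.7 to 143) to one of 58.2 CPM (33.2 to 70.3). Wee1, a cell cycle kinase driven by an E-box, rose by 0.72 ± 0.20 and Por, the electron donor of cytochromes P450, by 0.62 ± 0.16, while Leo1 fell by 0.32 ± 0.09 (SE, adjusted p = 0.0361, 0.0257 and 0.0299). These last 3 are named after their values were seen. In quadriceps, where 1.11% of all genes tested rose, 2 rose with weight matching, Klf10 by 0.79 ± 0.19 (SE, adjusted p = 0.0351) and Nqo1, named after its value was seen, by 0.45 ± 0.12 (SE, adjusted p = 0.0449). Both were lost without vehicle libraries 2 and 5 (adjusted p = 0.118 and 0.129) and without library 8 (adjusted p = 0.0606 and 0.0613). Klf10, a transcription factor induced by the clock and by fasting, ran from 9.88 to 14.8 CPM in vehicle muscles and from 11.5 to 28.2 CPM in weight-matched muscles. With CagriSema it ran from 6.98 to 20.5 CPM and was lower than with weight matching by 0.92 ± 0.19 (SE, adjusted p = 0.0485), the only list gene of these 3 lists that passed between the treatments with all libraries in the fit. That call was lost without vehicle libraries 2 and 5 (adjusted p = 0.0638) and without library 8 (adjusted p = 0.0554).

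Of the 10 glucocorticoid-responsive genes, Fkbp5, a chaperone of the glucocorticoid receptor, rose with weight matching by 0.77 ± 0.20 in liver (SE, adjusted p = 0.0224) and by 1.39 ± 0.28 in quadriceps (SE, adjusted p = 0.0171), and with CagriSema in liver by 0.93 ± 0.21 (SE, adjusted p = 0.0484). Mt1, a metallothionein, fell in CagriSema livers by 1.92 ± 0.39 (SE, adjusted p = 0.0449). Over all genes tested, 2.49% rose with weight matching in liver and 1.11% in quadriceps, and 0.354% were called with CagriSema in liver. Without liver libraries 4 and 6 the 3 liver calls were lost, with adjusted p-values of 0.0661 and 0.107 for Fkbp5 and 0.103 for Mt1. That of Fkbp5 in quadriceps was lost without libraries 2 and 5 (adjusted p = 0.107) and held without library 8. The other 8 genes of this list passed in no treatment comparison of either tissue where they were tested. The part of glucocorticoids in the change of Per1, which is a glucocorticoid target, was not tested. Between the tissues in vehicle, the list genes with the lowest p were Rbm20, a splicing factor of striated muscle that was lower in liver by 8.37 ± 0.40 (SE, adjusted p = 5.78e-32), Gys2, the liver form of glycogen synthase, which was higher there (adjusted p = 3.31e-30), and Errfi1, a feedback inhibitor of EGF receptor signalling that was higher in liver by 5.45 ± 0.15 (SE, adjusted p = 5.53e-30).

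The genes whose pattern over the 23 libraries of a tissue was most like that of Arntl or Dbp, by Spearman rho among genes with a mean of at least 1 CPM (10763 in liver, 10623 in quadriceps), are given as a description with no test. In liver Arntl was most like Nmi (rho = 0.709), Ctsf (0.691) and Igfn1 (0.688), and Dbp most like Hsd17b2 (0.828), Slc35b2 (0.826) and Klhdc3 (0.823). In quadriceps Arntl was most like Fbxo40 (rho = 0.851) and Nop2 (0.832), and Dbp most like Igsf3 (0.815), Nt5e (0.813) and Kcnj8 (0.751). These values hold both the differences between treatments and those between libraries of a group, and all genes share the libraries' depth.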

How the data were processed

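Values are whole-number counts per gene as deposited by the authors, not normalized, in a table of 32552 genes. The labels' protocols name the RNeasy Minikit for extraction and the Twist UMI system, with molecular identifiers, for libraries. Fastp 0.23.1 and STAR 2.5.2b stand in the submitters' processing notes. For the build, the annotation, the counting program and whether identifiers entered the counts, the answer is not given in the sources used here. Titles linked columns to the 46 libraries, and 1 count column without a matching title was not used.

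Groups came from the treatment labels. The members and gene lists were chosen with earlier results of these data known. In R 4.3.3, edgeR 4.0.16 (TMM, filterByExpr, robust quasi-likelihood F tests) was fitted per tissue to all 3 groups, over 12702 genes in liver and 12471 in quadriceps, and over all 46 libraries and 14110 genes for interactions and the tissue contrast. Benjamini-Hochberg adjustment was over all genes tested (threshold 0.05), and adjusted p-values in the text are from edgeR unless DESeq2 is named. The procedure was tested on simulated counts. CPM use TMM-scaled totals, within a tissue except for the tissue contrast. Totals of 9888858 to 16525274 counts limit the precision of genes near 1 CPM, and floors cover counting error only. Correlations used log2(CPM + 0.1).

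Besides the 10 members, genes were named by a rule: up to 3 list genes past the threshold per comparison, taken by p, and the 3 genes most like Arntl and Dbp. A result for 1 gene under each of these is not reported here. Alternatives were RLE size factors, no filter, a filter at a mean of 1 CPM, DESeq2 1.42.0, a fit of the 2 groups compared, a replicate block, and fits without single or set-apart libraries. Leaving out single libraries in the joint fit, and refitting the gene lists without libraries set apart, were added after seeing the data. Promoters are from RefSeq (GRCr8); the counts' own coordinates were not used.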

Additional observations from a re-analysis of the deposited data

Results flagged for a closer look

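Each of the 10 members was examined in each of the 6 groups of libraries, 60 sets in all, for a single library far from the rest of its group by Dixon's test. There were 5 such libraries, where chance flags about 1 in 20 sets if values are normally spread. The test was on CPM without a log scale, and the share of sets flagged over all genes was not computed. Arntl was at 14.7 CPM in vehicle quadriceps library 2, with the next highest at 5.52 CPM. Npas2 was at 3.15 CPM in vehicle quadriceps library 8, with the next at 1.41 CPM, and at 2.07 CPM in weight-matched quadriceps library 31, with the next at 0.928 CPM. Nr1d2 was low in vehicle liver library 4, at 92.7 CPM with the next lowest at 120 CPM. Per1 was low in weight-matched quadriceps library 28, at 65.8 CPM with the next lowest at 94.5 CPM. Liver library 4 and quadriceps libraries 2 and 8 are among those that stood apart in the data as a whole.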

How the results depend on the processing

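Over all members and comparisons, settings other than leaving out 1 library left 579 values on the same side of the threshold and in the same direction, took 12 past it and 7 back below it, reversed 13 and moved 1, the count for libraries of the same number. For Npas2 in liver, which the filter removed, the value with no filter stands as the main one. The fits without 1 library left 1889 the same, took 20 past the threshold and 25 back below it and reversed 34. No reversed value passed the test before or after. Depth limits Arntl and Npas2 most.

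For weight matching against vehicle in liver, 2 members in place of 5 passed in a fit of the 2 groups, and 2 to 6 without 1 library. For CagriSema against vehicle in liver, 1 in place of 0 passed with no filter and with DESeq2, and 0 to 1 without 1 library (Npas2, without vehicle 7 or CagriSema 38 or 39). It cleared the filter there through its high vehicle livers, so these calls support nothing. In liver, between CagriSema and weight matching, 2 passed in a fit of the 2 groups and 1 without vehicle libraries 4 and 6. For weight matching in quadriceps, 2 passed with DESeq2, 0 in a fit of the 2 groups and 0 without vehicle libraries 2 and 5, and 0 to 2 without 1 library. For the weight-matching interaction, 1 in place of 0 passed with the filter at a mean of 1 CPM (Per1, adjusted p = 0.0461), 2 with DESeq2, 1 with the replicate block and 0 to 3 without 1 library. For the CagriSema interaction against vehicle, 1 passed with DESeq2 and 0 to 1 without 1 library. For that against weight matching, 1 passed without the vehicle libraries set apart. The tissue contrast kept 5 to 7 calls without 1 library, 7 with the replicate block and 4 without the libraries set apart. The correlation of liver and quadriceps libraries of the same number passed by Pearson correlation for 1 member over all 22 numbers and for 3 without those of the libraries set apart, and by Spearman correlation for 7 and for 1.

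Reversed values, all on the log2 scale, follow, with whole ranges over fits without 1 library. In liver against vehicle with CagriSema, Nr1d2 turned to 0.0050 with no filter and ran from -0.060 to 0.016 without 1 library, and Per3 turned to -0.047 without vehicle libraries 4 and 6. Npas2 in liver, CagriSema minus weight matching, ran from -0.15 to 0.14. In quadriceps with weight matching, Arntl turned to 0.071 without vehicle libraries 2 and 5 and ran from -0.56 to 0.13 (0.13 without vehicle library 2), and Npas2 from -0.60 to 0.079 (0.079 without vehicle library 8). In quadriceps with CagriSema against vehicle, Clock turned to 0.049 without libraries 2 and 5 and ran from -0.047 to 0.040, and Npas2 ran from -0.19 to 0.35 (0.35 without vehicle library 8). Against weight matching, Per3 in quadriceps turned to -0.00052 with no filter and ran from -0.016 to 0.018, and Per2 from -0.017 to 0.062.
The CagriSema interaction against vehicle turned to -0.17 for Arntl, 0.074 for Per3 and 0.12 for Nr1d1 with the replicate block, and to -0.0019 for Per2 and 0.028 for Nr1d1 without the libraries set apart. Without 1 library it ran from -0.38 to 0.38 for Arntl (-0.38 without quadriceps vehicle library 2), -0.15 to 0.057 for Per3 and -0.11 to 0.097 for Nr1d1, and that against weight matching from -0.0040 to 0.087 for Clock. In the tissue contrast Clock turned to 0.056 without the libraries set apart, and Cry1 ran from -0.19 to 0.030 (0.030 without liver vehicle library 6).

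Same-number liver and quadriceps libraries tended to be more alike than others. Over 10322 genes their deviations correlated at 0.00699 to 0.251 (median 0.103, against -0.00532 for other pairs). Of 22 numbers, 12 exceeded 0.1 and 12 matched best with their own. With the replicate block, the interaction called 282 of all genes in place of 389 for weight matching, 10 in place of 21 for CagriSema against vehicle and 0 in place of 3 for CagriSema against weight matching, and 11594 in place of 11765 for the tissue contrast.

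Counts over all genes moved by over 1.5 times in several settings (cause not tested). In liver, for weight matching against vehicle, CagriSema against vehicle and CagriSema against weight matching, the main counts were 892, 45 and 68. DESeq2 gave 1339, 283 and 210, a fit of the 2 groups 414, 4 and 603, no filter 641, 13 and 45, and leaving out vehicle libraries 4 and 6 1042, 18 and 590. In quadriceps, in the same order, the main counts were 285, 4 and 16. DESeq2 gave 687, 38 and 33, a fit of the 2 groups 7, 2 and 15, no filter 131, 5 and 7, leaving out vehicle libraries 2 and 5 19, 0 and 15, and leaving out vehicle library 8 191, 7 and 14. For the interactions the main counts were 389, 21 and 3. DESeq2 gave 797, 188 and 59, no filter 224, 13 and 0, the filter at 1 CPM 413, 31 and 7, and leaving out the libraries set apart 190, 9 and 140. Without 1 library the counts ran from 532 to 1207, 3 to 130 and 27 to 68 in liver, from 46 to 645, 0 to 7 and 2 to 17 in quadriceps, and from 238 to 664, 11 to 53 and 0 to 8 for the interactions.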

Other observations

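Liver and quadriceps libraries carry the same numbers in their titles, and 22 numbers occur in both tissues. The labels do not say that a number marks a rat. For each member, the deviation of the liver library from its group mean of log2 CPM was set against that of the quadriceps library of the same number, with two-sided permutation tests (100000 resamples, shuffled within treatment) adjusted over the 10 members. All 10 Pearson correlations were above 0, from 0.126 for Per3 to 0.597 for Nr1d1. Nr1d1, the gene that fell in both tissues with weight matching, passed by both measures (r = 0.597, adjusted permutation p = 0.0171; rho = 0.534, adjusted permutation p = 0.0313), with r = 0.519 without the 2 numbers farthest from the median of the liver value and 0.765, 0.465 and 0.735 within vehicle, weight-matched and CagriSema numbers. Per2 gave r = 0.578 (adjusted permutation p = 0.0926) and rho = 0.656 (adjusted permutation p = 0.0313), Per1 r = 0.456 and rho = 0.591 (adjusted permutation p = 0.0926 and 0.0313), and Dbp r = 0.540 and rho = 0.474 (adjusted permutation p = 0.0682 and 0.0429). By Spearman correlation Npas2, Cry1 and Nr1d2 passed as well (rho = 0.4997, 0.538 and 0.510, adjusted permutation p = 0.0423 for each), which makes 7 members, against 1 by Pearson correlation. The share of all genes that would pass was not computed, so these counts are not read as a trait of the clock genes. Over 18 numbers, without those of the vehicle libraries set apart, Per1 (r = 0.587), Nr1d1 (r = 0.562) and Nr1d2 (r = 0.619) had an adjusted permutation p of 0.00380, 0.0236 and 0.0236 by Pearson correlation. By Spearman correlation only Per1 passed there, at an adjusted permutation p of 0.00320, with 0.0981 for Nr1d1 and 0.0906 for Nr1d2. Only 3 vehicle numbers remained, and deviations were still taken from the group means of all libraries. The numbers left out therefore still entered through those means, in this setting and in that without the 2 farthest numbers.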
